A study of Mus musculus with 6 samples.

Results

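The 7 genes described here, called members, encode secreted glycoproteins that cells place in or around the extracellular matrix: the thrombospondins Thbs1, Thbs2 and Thbs3, tenascin C (Tnc), osteonectin (Sparc), periostin (Postn) and fibronectin (Fn1). They were taken by symbol from a gene count table of 23358 rows, and all 7 were found once each and passed the filter on low counts. RNA had been measured in MC3T3-E1, a clonal line of pre-osteoblasts from C57BL/6 mouse calvaria that can lay down bone matrix in culture. Confluent cells were exposed for 16 h to NU7441 at 1 µM, which inhibits DNA-dependent protein kinase (DNA-PK), or to its solvent DMSO, with 3 sequenced samples per group. Each sample carries a replicate number, and the series' design text describes pooling of triplicates from independent experiments, so the p-values below measure the spread between these samples only.

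Matricellular proteins are secreted into the matrix but act mainly on how cells adhere, spread and respond to growth factors rather than as load-bearing fibres. Fibronectin, in contrast, is assembled by cells into fibrils through integrins and serves as a scaffold on which collagen and several of the other proteins are deposited. In bone, osteonectin is among the most abundant non-collagenous proteins, periostin marks the periosteum, and thrombospondins and tenascin C are found where osteoblasts condense and form matrix.

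The question put to the data was which of these transcripts differ after 16 h with NU7441. Thbs1, Thbs2, Fn1 and Sparc rose, by between 8.07% and 32.8%, and Tnc fell by 14.3%, while Thbs3 and Postn did not pass the test. Thbs1, an adhesive protein that can release TGF-beta from its latent form, had the largest rise, with 846 ± 4.19 counts per 1e6 library counts (CPM) in NU7441 and 637 ± 6.42 CPM in DMSO (mean ± SD, n = 3 each). A gene passed if its Benjamini-Hochberg adjusted p over all 13784 tested genes was under 0.05 in edgeR's quasi-likelihood test. By that rule 14.1% of all tested genes were higher and 16.6% lower in NU7441, against 4 higher and 1 lower among the 7 members. The median log2 fold change of the 7 was 0.11, beside 0.01 over all tested genes. The members were chosen with earlier results of these data known, so these contrasts with all genes are descriptions only. The rises of Fn1 and Sparc and the fall of Tnc depended on the model: with a robust fit only Thbs1 and Thbs2 passed, where 14.6% of all tested genes were higher and 17% lower. These are bulk samples, in which fewer cells of a type and less RNA per cell cannot be told apart.

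**Figure D1:**
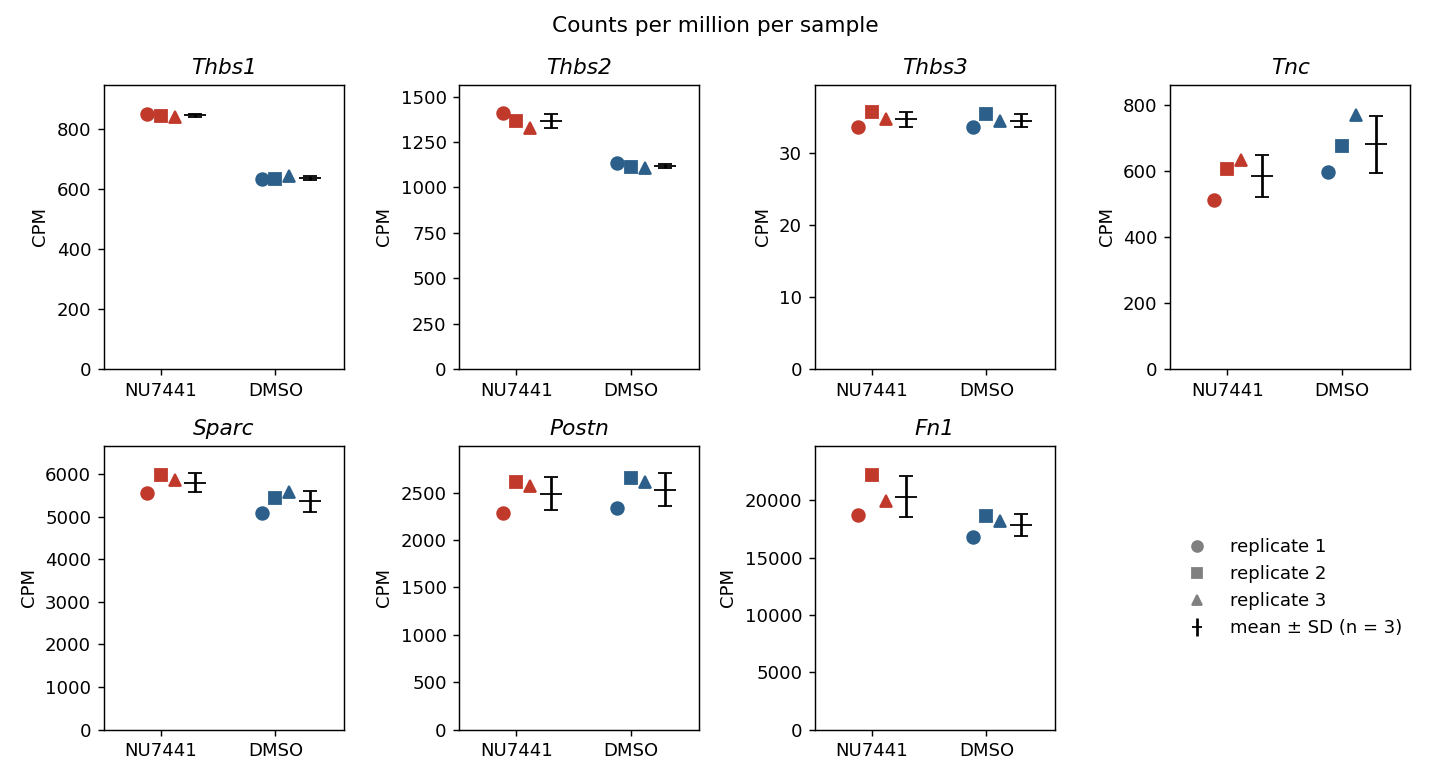
CPM of each gene in each of the 6 samples, with NU7441 left of DMSO in every panel, marker shapes for the replicate number and black bars for the mean and SD of 3 samples. Thbs1, Thbs2 and Fn1 separate between the groups, with the narrowest gap for Fn1 (18737 CPM in the lowest NU7441 sample and 18598 CPM in the highest DMSO sample).

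RefSeq promoter entries (GRCm38.p6) were found for 5 of the 7 genes: Thbs2, Thbs3, Tnc, Sparc and Postn. Tnc and Postn had 2 entries each, of which the one nearest the 5′ end of the deposited gene was used. The 250 bases before the transcription start are printed for the 3 of them that passed the test, of which Thbs2 and Sparc rose and Tnc fell, so that the sequences in front of genes that moved in opposite directions stand side by side. They lie on the minus strand at chr17:14694263-14694512 for Thbs2, chr11:55420081-55420330 for Sparc and chr4:64047016-64047265 for Tnc, are written 5′ to 3′, and carry motif matches in capitals.
Thbs2: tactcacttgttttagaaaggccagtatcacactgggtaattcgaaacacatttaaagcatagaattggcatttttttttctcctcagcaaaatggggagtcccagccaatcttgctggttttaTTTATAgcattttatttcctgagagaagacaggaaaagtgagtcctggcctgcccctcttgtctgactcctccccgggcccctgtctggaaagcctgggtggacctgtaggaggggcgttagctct
Sparc: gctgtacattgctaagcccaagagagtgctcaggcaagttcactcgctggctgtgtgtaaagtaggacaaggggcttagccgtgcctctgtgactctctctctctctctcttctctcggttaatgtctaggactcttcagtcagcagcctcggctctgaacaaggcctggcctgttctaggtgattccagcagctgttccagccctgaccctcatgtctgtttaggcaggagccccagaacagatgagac
Tnc: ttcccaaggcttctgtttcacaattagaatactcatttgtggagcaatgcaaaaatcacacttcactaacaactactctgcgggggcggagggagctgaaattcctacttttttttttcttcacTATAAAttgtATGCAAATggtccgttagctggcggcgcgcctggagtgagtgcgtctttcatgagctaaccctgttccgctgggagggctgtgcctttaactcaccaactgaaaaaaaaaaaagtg
On both strands of these windows 6 motifs were searched: the TATA box (TATAAA), the AP-1 site (TGANTCA), the cAMP response element (TGACGTCA), the octamer (ATGCAAAT), the TEAD site (GGAATG) and the CArG box, by its name. The Tnc window held TATAAA starting at -126 and ATGCAAAT at -116, counted from the transcription start on the gene's strand, and the Thbs2 window held TATAAA at -126 on the opposite strand, printed as TTTATA. No 2 of these matches overlapped. TATAAA was present in 12.4% of 32851 mouse promoter windows of the same length and ATGCAAAT in 1.6%. No letters of the 6 motifs were found in the Sparc window. Among the remaining entries the Postn window held TATAAA at -26 and the Thbs3 window held none of the 6. The AP-1 letters, in 6.75% of all windows, the cAMP response element, in 1.55%, the TEAD site, in 12.6%, and the CArG box, in 1.47%, were in none of the 5 windows. Such matches describe the letters only.

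Levels per gene length put Sparc and Fn1 far above the rest. By the RPKM that the authors deposited, which divide counts by gene length and library total, Sparc averaged 1869 ± 42.6 in NU7441 and 1767 ± 84.8 in DMSO (SD, n = 3 each), and stood at rank 6 or 7 of all 23358 rows in every sample. Fn1 averaged 1809 ± 137 RPKM in NU7441 and 1627 ± 84.1 in DMSO, and lay below Sparc in every DMSO sample and in 2 of 3 NU7441 samples. In NU7441 replicate 2 Fn1, at 1963 RPKM, was above Sparc, at 1910 RPKM. Postn followed at 559 ± 31.6 RPKM in NU7441 and 581 ± 38.3 in DMSO. Thbs2 (171 ± 7.40 in NU7441 and 143 ± 1.90 in DMSO) lay above Thbs1 (108 ± 2.15 in NU7441 and 83.1 ± 1.39 in DMSO) in every sample. Tnc came next at 61.0 ± 5.84 RPKM in NU7441 and 72.7 ± 9.49 in DMSO. In NU7441 every Tnc value was below every Thbs1 value, while in DMSO the highest Tnc sample, at 82.7 RPKM, lay within the Thbs1 range of 81.9 to 84.6 RPKM. Thbs3 was the lowest by far at 8.08 ± 0.139 RPKM in NU7441 and 8.20 ± 0.189 in DMSO. The length behind these values was between 0.379 and 0.955 times the merged exons of GENCODE M21, lowest for Postn, so levels across genes rest on the authors' choice of transcript. Together the 7 genes took 3.12% ± 0.194 of all gene counts in NU7441 and 2.84% ± 0.135 in DMSO, and Fn1 alone took 2.02% ± 0.165 in NU7441 and 1.80% ± 0.0916 in DMSO.

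**Figure D2:**
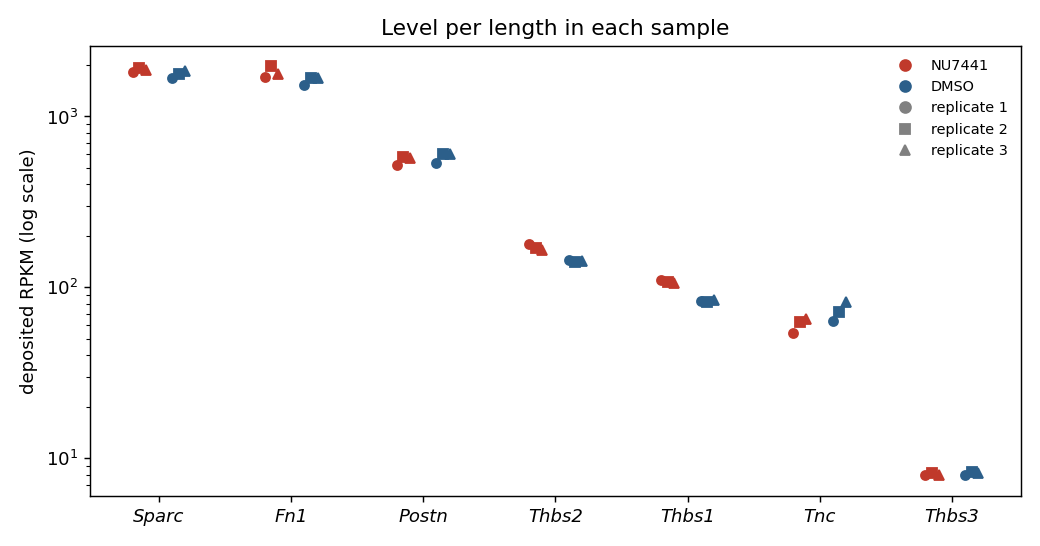
Deposited RPKM on a log axis for each gene in each sample, ordered by the DMSO mean, with NU7441 in red on the left and DMSO in blue on the right of each gene and marker shapes for the replicate number. Sparc and Fn1 lie close together at the top, and Thbs3 stands lowest at 8.08 RPKM in NU7441 and 8.20 in DMSO.

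The trimeric thrombospondins rose. Thbs1 (mm10 chromosome 2, 118111922 to 118127133, plus strand) had 850.4, 845 and 842 CPM in the NU7441 samples, against 634, 633 and 644 CPM in the DMSO samples. The NU7441 values all lay well above the DMSO values, and within each group the samples nearly coincided. The log2 fold change was 0.41 ± 0.02 (SE), a rise of 32.8% (95% interval 28.2% to 37.6%, edgeR adjusted p = 7.3e-09). Its size exceeded that of 89.2% of all tested genes. A microRNA gene of the table, Mir3110, lies inside Thbs1, and an antisense long non-coding RNA, Gm29233, shares 3.42% of its exon bases.

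Thbs2 (chromosome 17, 14665500 to 14694262, minus strand), which shares the trimeric form and in mice limits the number of marrow osteoprogenitors, had 1407, 1364 and 1327 CPM in NU7441, against 1133, 1113 and 1109 CPM in DMSO. Again no NU7441 sample reached down to a DMSO sample. The mean was 1366 ± 39.9 CPM in NU7441 and 1118 ± 12.7 in DMSO, a log2 fold change of 0.29 ± 0.02 and a rise of 22.2% (95% interval 17.9% to 26.6%, edgeR adjusted p = 3.7e-07). Thbs1 and Thbs2 passed in all 15 alternative settings, with log2 fold changes between 0.39 and 0.43 for Thbs1 and between 0.27 and 0.31 for Thbs2.

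Thbs3 (chromosome 3, 89215187 to 89226837, plus strand) belongs to the pentameric thrombospondins and takes part in the timing of skeletal maturation in mice. It had 33.6, 35.7 and 34.7 CPM in NU7441, against 33.6, 35.4 and 34.5 CPM in DMSO, and the groups overlapped throughout. The log2 fold change, 0.01 ± 0.04, did not pass (edgeR adjusted p = 0.88), with an interval from -4.94% to 6.61% around the DMSO level, which leaves out rises of the size seen for Thbs1 and Thbs2. Mtx1, on the opposite strand, shares 6.59% of the exon bases of Thbs3 in GENCODE M21. By the deposited coordinates no other row overlaps Thbs3. No source used here says if the counting used strand, and reads from a shared stretch could belong to either gene.

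Tenascin C, a six-armed protein that can weaken cell adhesion to fibronectin, was the member that fell. Tnc (chromosome 4, 63959785 to 64047015, minus strand) had 513, 608 and 634 CPM in NU7441, against 598, 678 and 771 CPM in DMSO. The groups overlapped: the lowest DMSO sample, replicate 1, lay below NU7441 replicates 2 and 3. Within each replicate number, NU7441 lay below DMSO. The mean was 585 ± 64.0 CPM in NU7441 and 682 ± 86.4 in DMSO, a log2 fold change of -0.22 ± 0.08 and a change of -14.3% (95% interval -23.7% to -3.68%, edgeR adjusted p = 0.044). The call was lost without NU7441 replicate 1 (log2 fold change -0.14, adjusted p = 0.15), without NU7441 replicate 2 (-0.25, adjusted p = 0.054), without DMSO replicate 2 (-0.23, adjusted p = 0.11) and without DMSO replicate 3 (-0.13, adjusted p = 0.24). It was also lost with DESeq2 (adjusted p = 0.24), with a robust fit (adjusted p = 0.33) and with upper-quartile scaling (-0.20, adjusted p = 0.073), although the direction was the same in all 15 alternatives.

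Osteonectin and periostin, which both bind collagen, differed in their result. Sparc (chromosome 11, 55394501 to 55420080, minus strand) had 5563, 5984 and 5855 CPM in NU7441, against 5091, 5441 and 5571 CPM in DMSO. The lowest NU7441 sample fell just under the highest DMSO sample, although within each replicate number NU7441 lay above DMSO. The mean was 5801 ± 216 CPM in NU7441 and 5368 ± 249 in DMSO, a log2 fold change of 0.11 ± 0.03 and a rise of 8.07% (95% interval 3.58% to 12.8%, edgeR adjusted p = 0.0079). With the robust fit the adjusted p of Sparc was 0.17. With each library left out in turn, its log2 fold change lay between 0.08 and 0.14 and passed every time.

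Postn (chromosome 3, 54361107 to 54391041, plus strand), which also binds fibronectin and tenascin C, had 2286, 2610.1 and 2571 CPM in NU7441, against 2337, 2650.2 and 2609 CPM in DMSO. Replicate 1 was the lowest of its group in each case and the ranges overlapped almost fully. At each replicate number NU7441 lay slightly below DMSO. The mean was 2489 ± 177 CPM in NU7441 and 2532 ± 170.3 in DMSO (log2 fold change -0.02 ± 0.05, edgeR adjusted p = 0.74). The 95% interval of this fit ran from -8.23% to 5.30% around the DMSO level.

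Fibronectin was the member with the most counts, between 882814 and 1308246 per sample. Fn1 (chromosome 1, 71585523 to 71653171, minus strand) had 18737, 22239.9 and 19928 CPM in NU7441, against 16785, 18598 and 18225 CPM in DMSO. All NU7441 samples were above all DMSO samples, by a narrow margin between NU7441 replicate 1 and DMSO replicate 2. The mean was 20302 ± 1781 CPM in NU7441 and 17869 ± 958 in DMSO, a log2 fold change of 0.18 ± 0.05 and a rise of 13.6% (95% interval 6.17% to 21.6%, edgeR adjusted p = 0.0066). Without NU7441 replicate 2, which held the highest value, the log2 fold change of Fn1 was 0.11. The call was lost with DESeq2 (adjusted p = 0.089) and with the robust fit (adjusted p = 0.198). Fn1 transcripts differ by alternative exons, which counts per gene do not separate. The antisense gene Apol7d shares 2.5% of the exon bases of Fn1 in GENCODE M21, but no other row overlaps Fn1 by the deposited coordinates.

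**Figure D3:**
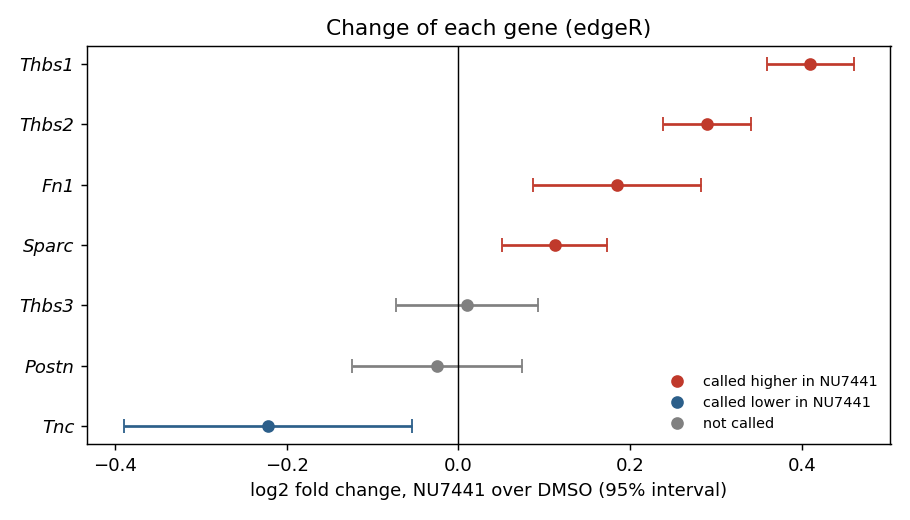
Log2 fold change of NU7441 over DMSO for each gene with its 95% interval from edgeR, from Thbs1 at the top to Tnc at the bottom, coloured by whether the adjusted p was under 0.05. The intervals of Thbs1 (log2 fold change 0.41) and Thbs2 (0.29) do not meet, and those of Thbs3 and Postn include 0.

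The groups did not overlap for 3 members, all of them higher (Thbs1, Thbs2 and Fn1), where 20.6% of all tested genes lay wholly higher and 22.2% wholly lower in NU7441. Ratios between members within the same library are given as a description, because 3 against 3 samples cannot go below 0.1 in a two-sided exact permutation test. The log2 ratio of Thbs1 to Thbs2 was -0.69 ± 0.04 in NU7441 and -0.81 ± 0.03 in DMSO (SD, n = 3 each), a difference of 0.12. The log2 ratio of Thbs1 to Tnc was 0.54 ± 0.17 in NU7441 and -0.09 ± 0.17 in DMSO, the largest difference of the 21 pairs at 0.63. The log2 ratio of Tnc to Fn1, a pair that binds each other in the matrix, was -5.12 ± 0.13 in NU7441 and -4.72 ± 0.13 in DMSO. In 17 of the 21 pairs the ratios of the groups did not overlap, which gives that smallest p (0.124 after adjustment over the 21 pairs). The pairs reuse the same members, so this count does not stand for separate results. How often ratios of other genes separate was not measured. Among the pairs whose ratios overlapped were Sparc with Fn1 (difference -0.07, exact p = 0.3) and Thbs2 with Fn1 (difference 0.11, exact p = 0.4).

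The members varied within groups to very different degrees. The within-group SD of log2 CPM was 0.01 for Thbs1, and 4.2% of the 500 tested genes nearest to it in mean level had a smaller one. For Tnc it was 0.17, and 99.6% of the 500 nearest genes had a smaller one. Fn1 and Postn (both 0.10) exceeded 96.8% and 96.4% of their 500 nearest genes. Replicate 1 was the lowest sample in both groups for 5 members, Thbs3, Tnc, Sparc, Postn and Fn1, and this pattern held for 15.8% of all tested genes.

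**Figure D4:**
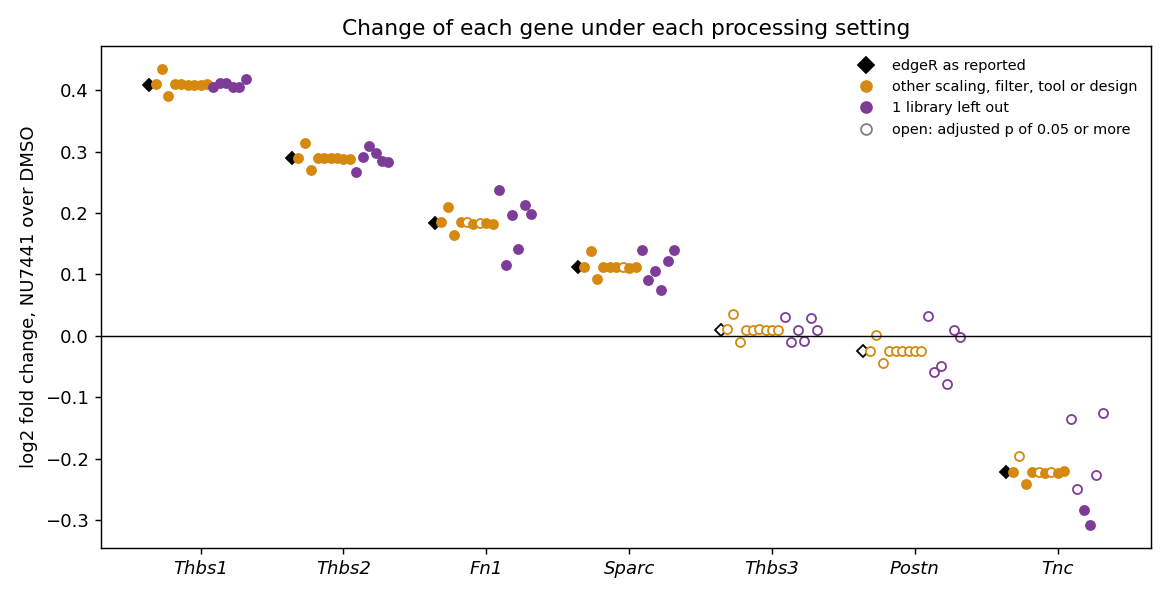
Log2 fold change of each gene under the reported edgeR fit (black diamond), 9 alternatives of scaling, filter, tool or design (orange) and 6 fits that leave out 1 library (purple), with open symbols where the adjusted p was 0.05 or more. Thbs1 and Thbs2 are filled throughout, Tnc is negative throughout but open in 7 of 15 alternatives, and Postn and Thbs3 scatter around 0.

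Relatives of the members from the same protein families were listed next. Of 13 listed, 9 were tested, 2 rose and 0 fell, where 30.7% of all tested genes passed in either direction, and the median log2 fold change was 0.10. Tgfbi, the paralogue of periostin, had 101 ± 5.25 CPM in NU7441 and 84.9 ± 3.75 in DMSO (log2 fold change 0.25 ± 0.04, edgeR adjusted p = 0.00036). Fstl1, a secreted protein with a SPARC-like module, rose by 0.11 ± 0.02. Tnn, the tenascin W gene, had 521 ± 36.8 CPM in NU7441 and 479 ± 35.4 in DMSO and did not pass (edgeR adjusted p = 0.096). Thbs4, a pentameric thrombospondin, had between 0 and 6 counts per sample and was not tested. Of these relatives 4 rose with upper-quartile scaling, without the filter on low counts, with replicate number as a block and without NU7441 replicate 1. Without NU7441 replicate 3, 1 fell. Laminins and other adhesive glycoproteins had 7 of 23 tested genes higher and 0 lower, with a median of 0.12. Among them Lamb2 (0.35 ± 0.04) and Lama4 (0.25 ± 0.03) encode laminin chains of basement membranes, Mfge8 (0.25 ± 0.04) an integrin-binding bridge to phosphatidylserine and Ecm2 (0.48 ± 0.09) a matrix protein. The number of these adhesive genes that fell was 1 without DMSO replicate 1 or with scaling by library size only. It was 2 with replicate number as a block.

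Receptors for the 7 proteins went both ways, 6 of 17 tested genes higher and 2 lower, with a median of 0.09. Itgb5, an integrin subunit for vitronectin and other RGD ligands, had 373 ± 7.21 CPM in NU7441 and 296 ± 14.1 in DMSO (log2 fold change 0.33 ± 0.04, edgeR adjusted p = 6.1e-06). Lrp1, the endocytic receptor that clears thrombospondins (0.23 ± 0.04), and Itgb1, the beta subunit of the main fibronectin receptor (0.14 ± 0.03), also rose. Itga8, whose integrin binds fibronectin and tenascin C, fell by 0.36 on the log2 scale to 14.3 ± 0.185 CPM in NU7441, against 18.5 ± 0.693 in DMSO (edgeR adjusted p = 0.00013). Itga5, the alpha subunit of the fibronectin receptor, had 101 ± 0.609 CPM in NU7441 and 99.2 ± 0.868 in DMSO (edgeR adjusted p = 0.45), and Cd47, a thrombospondin receptor, had 50.8 ± 2.31 CPM in NU7441 and 48.8 ± 1.54 in DMSO (edgeR adjusted p = 0.30). The number of receptor genes that fell was 1 without NU7441 replicate 1, NU7441 replicate 3, DMSO replicate 1 or DMSO replicate 3. It was also 1 with upper-quartile scaling.

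Of 15 focal adhesion and fibronectin anchoring genes 7 rose and 1 fell, with a median of 0.09. Flna (0.12 ± 0.02) and Vcl (0.13 ± 0.03) link integrins to actin, and Parva (0.14 ± 0.03) and Pxn (0.15 ± 0.03) are adaptors of the same sites. Of 13 tested proteases that can cut matrix glycoproteins 6 rose and 2 fell, also with a median of 0.09. Mmp13, a collagenase, was the furthest moved at 0.99 ± 0.04 on the log2 scale, the gelatinase gene Mmp2 rose by 0.21 ± 0.03 and the aggrecanase gene Adamts4 by 0.21 ± 0.04. Adamts1, which can cut thrombospondins, fell (-0.19 ± 0.04, edgeR adjusted p = 0.003). The number of protease genes that fell was 1 without NU7441 replicate 2, NU7441 replicate 3, DMSO replicate 2 or DMSO replicate 3. It was also 1 with DESeq2 and with upper-quartile scaling. Over all tested genes 14.1% were higher and 16.6% lower, beside which each list's counts stand, and no list was tested as a set.

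**Figure D5:**
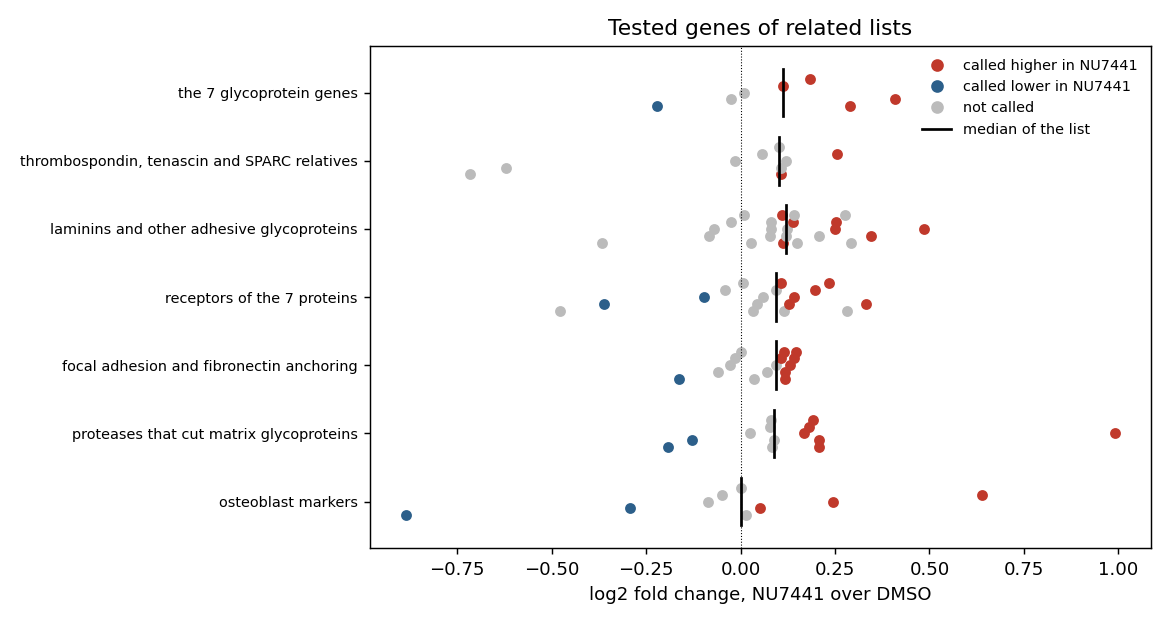
Log2 fold change of every tested gene in the 7 members and 6 related lists, 1 point per gene, coloured by the edgeR call, with a black line at each list's median. The medians of the matrix and adhesion lists lie between 0.09 and 0.12, that of the osteoblast markers at 0.00, and Mmp13 (0.99) and Ibsp (-0.89) are the outermost points.

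By a distance between profiles, the genes most like each member were sought among 8447 others with a mean of at least 10 CPM. The measure was the root mean square difference of centred log2 CPM over the 6 samples, where 0 means an identical course. Samples of both groups enter it, so a near gene has a similar fold change by construction. Nearest to Thbs1 were Fat4 (0.01) and Pdgfra (0.02), which rose by 0.41 ± 0.03 and 0.42 ± 0.03. Nearest to Thbs2 were Pld3 (0.01) and Tmem67 (0.02). Nearest to Fn1 were the protease gene Htra1 (0.02), at 92.2 ± 7.07 CPM in NU7441 and 81.4 ± 5.80 in DMSO, and Glb1l (0.03). Near Sparc was Odz4 (0.01). Postn was closest to Plce1 (0.01) and Aldh1a3 (0.02), and Thbs3 to Son (0.004) and Chd8 (0.01). Tnc had no profile as near, its closest being Gfra2 (0.04) and Pelo (0.04).

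The libraries held between 47312968 and 71292628 gene counts, and DMSO replicate 3 was the deepest. The summed CPM of 10 osteoblast markers lay between 42958 and 44020 in NU7441 and between 41677 and 43916 in DMSO, most of it coming from Col1a1 and Col1a2, although Bglap (osteocalcin) had only 2 to 12 counts per sample. Of the 9 tested markers 3 rose and 2 fell, where 14.1% of all tested genes were higher and 16.6% lower. Spp1 (0.25 ± 0.03), Dmp1 (0.64 ± 0.20) and Col1a2 (0.05 ± 0.02) were higher, and Ibsp (-0.89 ± 0.15) and Alpl (-0.29 ± 0.07) lower. Dmp1 had a low level, at 2.08 ± 0.464 CPM in NU7441 and 1.34 ± 0.0910 in DMSO. However, the robust fit left 0 of these markers lower, and 1 was higher without NU7441 replicate 2 or DMSO replicate 2. Among markers of other cell types, endothelial markers summed to between 0.267 and 0.625 CPM in NU7441 and between 0.324 and 0.529 in DMSO (Kdr and Tie1 at 0 in all samples), and adipocyte markers to between 0.306 and 1.03 in NU7441 and between 0.502 and 0.716 in DMSO. Blood and macrophage markers summed to between 3.38 and 3.86 CPM in NU7441 and between 2.77 and 3.03 in DMSO, with Ptprc and Emr1 at 0 in all samples. Most of that sum was Cd14, at 2.66 ± 0.224 CPM in NU7441 and 1.85 ± 0.114 in DMSO, which passed as higher (0.52 ± 0.15, edgeR adjusted p = 0.016). Csf1r, the other blood marker tested, did not pass and had the opposite sign (-0.17 ± 0.24, edgeR adjusted p = 0.63). Skeletal muscle markers summed to between 1.57 and 2.24 CPM in NU7441 and between 1.51 and 1.62 in DMSO (Myod1 at 0), and epithelial markers to between 2.64 and 3.09 in NU7441 and between 2.23 and 3.20 in DMSO (Epcam, Krt8 and Krt18 at 0). Chondrocyte markers summed to between 95.04 and 101 CPM in NU7441 and between 90.5 and 91.8 in DMSO, mostly Sox9 (79.3 ± 1.26 in NU7441 and 72.2 ± 1.16 in DMSO), with the cartilage gene Acan at 0 in all samples. Of the 4 chondrocyte markers tested, Sox9 (0.14 ± 0.03, edgeR adjusted p = 0.0058) and Col2a1 (0.23 ± 0.08, edgeR adjusted p = 0.046) were higher and Matn3 (-0.84 ± 0.24, edgeR adjusted p = 0.017) lower. Matn3 had a low level, at 0.806 ± 0.229 CPM in NU7441 and 1.43 ± 0.263 in DMSO. The summed chondrocyte and blood markers, mostly Sox9 and Cd14, were higher in every NU7441 sample than in every DMSO sample, as Thbs1, Thbs2 and Fn1 were. Of all tested genes 20.6% lay wholly higher in NU7441. The part of these markers in the results of the members was not tested.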

How the data were processed

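RNA-seq of 6 samples was used, 3 with NU7441 and 3 with DMSO, grouped by title. Per the submitters' processing notes, the tools were bcl2fastq, HTSeq and TopHat2 (2.0.6) with build mm10; settings are not stated. The authors deposited counts, RPKM values and a gene length for 23358 rows. Deposited counts were whole and none was odd, so a read pair seems to have been counted as 2; they were tested as deposited. The deposited RPKM values served only to compare levels between genes.

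Genes were filtered with filterByExpr (at least 10 counts, total of at least 15). TMM scaling preceded the test in edgeR 4.0.16 in R 4.3.3 (quasi-likelihood, group as only term, two-sided, Benjamini-Hochberg over 13784 genes). The SE is the log2 fold change divided by the square root of F, and CPM use scaled library sizes. DESeq2 1.42.0 and limma 3.58.1 were alternatives. On simulated counts for NU7441 against DMSO (13665 genes), edgeR recovered 79.1% of 67 genes changed 1.25-fold and 97% of 67 changed 1.5-fold. Of 195 calls 11 were false. Smaller changes, such as those of Sparc, Fn1, Tnc and Thbs2, were not simulated. Far fewer genes were changed there than were called in the data, so these rates do not cover the calls above.

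The members and lists were chosen with earlier results of these data known. Named from each list were up to 4 called genes with the lowest adjusted p. Tnn, Thbs4, Itga5, Cd47 and Bglap were added after their values were seen, and not every gene the rule took is described; a profile neighbour of Sparc is not reported here. Emr1 and Tenc1 are older symbols of listed genes. Replicates of a group each differed beyond sampling noise (chi-square per degree of freedom 3.56 to 8.33).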

Additional observations from a re-analysis of the deposited data

How the results depend on the processing

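Thbs1 and Thbs2 passed in all 15 alternatives, and Thbs3 and Postn in none. Tnc was lower but did not pass with upper-quartile scaling (-0.20), DESeq2 (-0.22) or a robust fit (-0.22), so that 0 members were lower there. Fn1 did not pass with DESeq2 (0.18) or the robust fit (0.18), nor Sparc with the robust fit (0.11), which left 2 members higher. The causes were not tested. Upper-quartile scaling gave 56.5% of all calls as higher, against 45.9% with TMM.

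With each library left out, the log2 fold change of Tnc lay between -0.31 and -0.13, that of Fn1 between 0.11 and 0.24 and that of Sparc between 0.08 and 0.14. The members lower numbered from 0 to 1. Relatives called numbered from 2 to 4 (4 without NU7441 replicate 1), and osteoblast markers from 3 to 5 (3 without NU7441 replicate 2 or DMSO replicate 2).

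Relatives called numbered 2 in the reported fit and 4 with upper-quartile scaling, without the filter on low counts and with the replicate block. Osteoblast markers called numbered 2 with the robust fit. The labels do not say if a replicate number marks an experiment, and the reported fit did not pair samples by it. Correlations of same-numbered deviations were 0.134, 0.088 and 0.0471, and every sample correlated best with its own number. With the replicate block the genes called numbered 2417 higher and 2703 lower, against 1941 and 2290. Adhesive glycoproteins called numbered 13 (11 higher and 2 lower) against 7 (all higher). No member's call changed with the block in edgeR. Tnc had -0.22 ± 0.02 (adjusted p = 7.9e-07), Fn1 0.18 ± 0.01 (adjusted p = 4.5e-08) and Sparc 0.11 ± 0.01 (adjusted p = 2.3e-07). Postn had -0.02 ± 0.01 (adjusted p = 0.075), with an unadjusted 95% interval wholly below 0.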
